A study of Mus musculus with 11 samples.

Results

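The oligosaccharyltransferase (OST) complex of the endoplasmic reticulum (ER) was examined in mouse cochlea through 10 of its subunit genes, Rpn1, Rpn2, Ddost, Dad1, Stt3a, Ostc, Krtcap2, Stt3b, Tusc3 and Magt1. The genes were selected by name from the deposited expression table, and all 10 were found among its 18667 genes. All 10 also passed the filter for testing, a mean of 0.1 FPKM or more over the libraries, which 16169 genes passed in all. FPKM is the number of fragments of a transcript scaled by its length and by the number of mapped fragments in the library.

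RNA-Seq was performed on whole Atf6+/+ cochleae (n = 5) and Atf6-/- cochleae (n = 6), with 1 library per individual cochlea. The sources used here do not say whether each cochlea came from a different mouse, so n counts cochleae, and 1 Atf6+/+ library had an intermediate level of Y-linked transcripts, given with the library differences. The mice were 2 months old and on a C57BL/6J background, which carries the Cdh23ahl allele of age-related hearing loss in both genotypes. The mutation of the Atf6-/- mice places an early stop codon in exon 4 of the gene in every cell type, so that no ATF6 protein is made, and effects arising within the cochlea and elsewhere in the animal cannot be told apart. The comparison asked which transcripts differ in the cochlea when ATF6, a transcription factor of the unfolded protein response, is missing. In bulk tissue, fewer cells of a type and less RNA per cell cannot be told apart.

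OST transfers a preassembled sugar chain from the lipid carrier dolichol to asparagine residues of proteins entering the ER. Mammalian cells hold 2 forms of the enzyme. The form built on STT3A sits at the SEC61 channel and glycosylates proteins while they are being translated, and the form built on STT3B acts on sites that the former has skipped. Ribophorins, OST48 and DAD1 are common to both forms. ATF6 is cleaved under ER stress, and its released fragment activates genes for chaperones and folding enzymes. In the cochlea, adhesion proteins of hair cells and matrix glycoproteins such as the tectorins carry N-glycans.

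Atf6 mRNA in the 5 Atf6+/+ libraries was 10.40, 9.99, 10.56, 8.39 and 8.25 FPKM. In the 6 Atf6-/- libraries it ranged from 3.83 to 4.59 FPKM with a median of 4.22 FPKM. The genotypes did not overlap, and the mean of the mutants fell by 5.25 FPKM. An exact two-sided permutation test over 462 splits gave p = 0.00216, the smallest this design allows. The transcript was thus reduced to 0.456 of the Atf6+/+ level (95% interval 0.402 to 0.517 by limma) and not lost, which matched the genotype labels in all 11 libraries.

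Several differences between libraries bear on the OST genes. Atf6-/- replicate 3 had the highest value of all 11 libraries for 10 of 10 OST members, whereas it was the highest library for 7.35% of all genes tested. Atf6+/+ replicate 4 was the lowest library for 4 of 10 members and had the lowest summed level of stria vascularis markers, 202 FPKM against 285 to 449 FPKM in the others. Blood and marrow markers that passed the unadjusted test were lower in Atf6-/- cochleae, where 5.37% of all tested genes were lower. They were 6 of 7 erythroid, 4 of 8 neutrophil, 3 of 6 B cell and 2 of 3 plasma cell genes. The plasma cell list includes Derl3, which the study links to the ATF6 pathway. Summed erythroid markers ranged from 3190 to 30300 FPKM in Atf6+/+ and from 1870 to 6110 FPKM in Atf6-/- libraries, and summed neutrophil markers from 273 to 3390 FPKM and from 111 to 1290 FPKM. No list had all of its defining markers at 0. The cochlear markers that passed were higher in Atf6-/- cochleae, where 4.48% of all tested genes were higher. They were 2 of 7 for hair cells, 1 of 6 for stria vascularis, 1 of 4 for fibrocytes and 1 of 7 for supporting cells. Of the remaining lists, 1 of 6 skeletal muscle genes was lower, and 0 of 8 osteoblast and osteocyte genes and 0 of 5 Schwann cell genes passed. The part of these markers in the OST results was not tested beyond the fits with a marrow score given beside them. The labels gave no sex. Summed transcripts of 4 Y-linked genes exceeded 1 FPKM in 4 of 5 Atf6+/+ and 3 of 6 Atf6-/- libraries, and 1 of these Atf6+/+ libraries lay at 15.6 FPKM, below the 33.4 to 41 FPKM of the other libraries above 1.

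All OST members were expressed well above the filter, across a 22.2-fold range of FPKM, a scale that is corrected for transcript length. Dad1, a small membrane subunit common to both forms, was the most abundant at a mean of 233 FPKM over the 11 libraries. Rpn2 followed at 102 FPKM and Krtcap2 at 91.2 FPKM, then Ddost at 63.8, Ostc at 54.5 and Rpn1 at 49.4 FPKM. The lower end held Tusc3 at 36.9, the catalytic subunit genes Stt3b at 22.7 and Stt3a at 12.9, and Magt1 at 10.5 FPKM. In this order Rpn2 and Krtcap2, Ddost and Ostc, Ostc and Rpn1, and Stt3a and Magt1 had overlapping ranges over libraries, while the other neighbouring genes did not overlap. Within a library Stt3a nevertheless exceeded Magt1 in 11 of 11 cases, and Rpn2 exceeded Krtcap2 in 10 of 11. Dad1 lay at the 98.3 percentile of all tested genes by mean FPKM and Magt1 at the 55.1 percentile. FPKM of the subunits that share the complex were therefore far from equal, including Dad1 at 2.28-fold the next member.

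**Figure D1:**
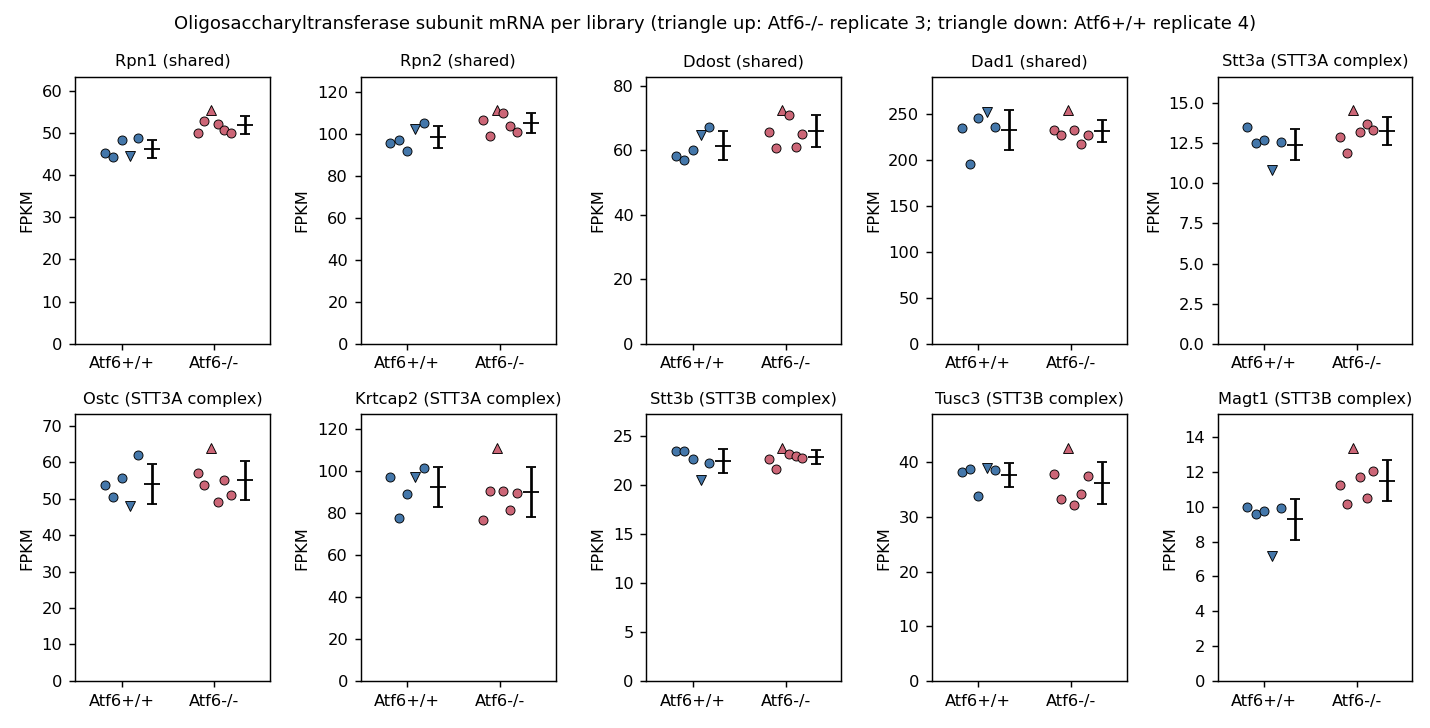
FPKM (y axis, from 0) of each OST subunit gene in 5 Atf6+/+ (blue) and 6 Atf6-/- (red) cochlear libraries, with mean and SD as black bars. Rpn1 and Magt1 are the genes whose genotypes do not overlap, and the upward triangle, Atf6-/- replicate 3, is the highest library in all 10 panels.

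Promoters of the members are shown because ATF6 is known to act through short DNA elements close to the start of its target genes. RefSeq windows (build GRCm38.p6, 250 bases before to 50 after a start) were found for 8 of 10 members, giving 10 windows. Those printed here are the windows of Rpn1 and Magt1, which were higher in Atf6-/- cochleae, that of Dad1, the most abundant member, and the window of Krtcap2 that held an ERSE-II. Capitals mark CCAAT on either strand and, for Krtcap2, the ERSE-II.
Rpn1, chr6:88084223-88084522, plus strand: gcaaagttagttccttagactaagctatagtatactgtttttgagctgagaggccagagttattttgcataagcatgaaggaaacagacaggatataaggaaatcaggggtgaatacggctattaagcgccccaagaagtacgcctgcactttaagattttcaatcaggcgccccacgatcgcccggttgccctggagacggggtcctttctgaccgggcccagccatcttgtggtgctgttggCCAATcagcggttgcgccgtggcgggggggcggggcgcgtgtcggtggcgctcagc
Magt1, chrX:106011753-106012052, minus strand: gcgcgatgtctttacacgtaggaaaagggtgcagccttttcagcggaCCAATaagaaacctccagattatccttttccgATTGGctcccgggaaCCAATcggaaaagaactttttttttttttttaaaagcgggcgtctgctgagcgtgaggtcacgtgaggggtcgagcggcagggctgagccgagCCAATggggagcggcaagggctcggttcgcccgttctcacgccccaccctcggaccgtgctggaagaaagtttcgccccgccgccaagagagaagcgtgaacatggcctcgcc
Dad1, chr14:54253880-54254179, minus strand: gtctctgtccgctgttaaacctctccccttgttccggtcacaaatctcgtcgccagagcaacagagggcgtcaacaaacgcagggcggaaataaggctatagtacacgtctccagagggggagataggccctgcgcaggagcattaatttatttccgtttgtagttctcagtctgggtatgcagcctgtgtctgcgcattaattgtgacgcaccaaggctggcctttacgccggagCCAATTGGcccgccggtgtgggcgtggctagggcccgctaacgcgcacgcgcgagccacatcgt
Krtcap2, chr3:89246223-89246522, plus strand: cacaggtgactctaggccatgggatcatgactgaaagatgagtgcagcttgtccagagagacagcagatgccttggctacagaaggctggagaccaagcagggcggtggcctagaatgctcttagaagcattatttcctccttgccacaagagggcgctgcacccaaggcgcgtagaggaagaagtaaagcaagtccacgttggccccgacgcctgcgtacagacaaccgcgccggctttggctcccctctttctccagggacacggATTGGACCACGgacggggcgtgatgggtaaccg

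The elements were searched on both strands. The ER stress response element (ERSE) was written as CCAAT, 9 bases of any kind and CCACG, and ERSE-II as ATTGG, 1 base and CCACG, so both contain CCACG and a CCAAT in either orientation. ERSE matched 0 of 8 member genes and 0.165% of the 12726 tested genes that had a window (0.119% of all 32851 windows). ERSE-II matched Krtcap2 alone, with its first base at position +18, where the start is +1, and 0.0707% of tested genes with a window (0.0365% of all windows). The unfolded protein response element core TGACGTGG, whose other strand contains CCACG, matched 0 of 8 members and 1.01% of tested genes with a window (0.676% of all windows). The C/EBP-ATF element TGATGNAA, known from ATF4 target genes, also matched 0 of 8 members, against 2.96% of tested genes with a window (3.97% of all windows). CCAAT by itself was present in 8 of 8 member genes, against 42.6% of tested genes with a window. Magt1 held 4 copies, at -203, -171, -156 and -63 from the start, and Rpn1 1 copy at -6. CCACG by itself was present in 6 of 8 members and in 48.9% of tested genes with a window, with Rpn2 and Magt1 the members without it. Member windows were richer in G and C, at a median of 57.9% against 52.7% over all windows. All windows include those of genes not tested here, and a median over tested genes alone was not computed. These matches describe letters in the windows, and a missing match says only that the letters were not found there.

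Of the 10 OST members, Rpn1 and Magt1 were higher in Atf6-/- cochleae, so that 2 of 10 passed in this direction and 0 of 10 in the other. A gene passed if its unadjusted p did not exceed 0.05 and its log2 fold change lay beyond 0.05. Over all tested genes 4.48% were higher by this rule and 5.37% lower. Of all calls 45.5% were thus higher, against 76.0% after rescaling to TPM, where Rpn2 and Ddost passed as well. The 4 of 10 members higher there stand against 8.59% of all tested genes, and the 2 of 10 above against 4.48%. No OST member passed an adjusted p below 0.05 by limma with Benjamini-Hochberg correction over all genes, which 0.068% of genes passed. The genotypes did not overlap for the same 2 members, against 0.643% of all genes with every Atf6-/- library higher, and 0 members had every Atf6-/- library lower, against 0.606%. The median log2 fold change was 0.06 over the 10 members and -0.01 over all tested genes. Members made up 0.128% to 0.138% of the summed FPKM in Atf6+/+ libraries and 0.138% to 0.152% in Atf6-/- libraries. The summed FPKM includes the blood and marrow transcripts. The highest share was that of Atf6-/- replicate 3, and the next was 0.143% in Atf6-/- replicate 6. Summed FPKM of the members themselves overlapped, at 606.6 to 704.4 in Atf6+/+ and 652.0 to 762.9 in Atf6-/- libraries. Without Atf6+/+ replicate 4 and Atf6-/- replicate 3 the members' median was 0.01, while Rpn1 and Magt1 were still called.

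**Figure D2:**
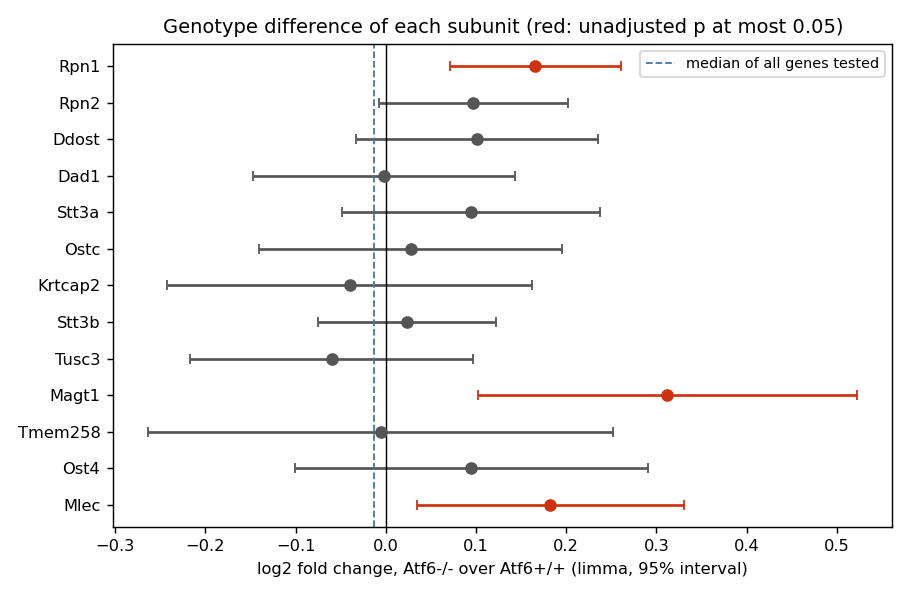
Log2 fold change of Atf6-/- over Atf6+/+ with its 95% interval from limma for the 10 members and for Tmem258, Ost4 and Mlec. The intervals of Rpn1, Magt1 and Mlec (red) exclude 0, and those of the other genes include it.

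Among the subunits common to both forms, Rpn1 encodes ribophorin I, which delivers some membrane proteins to the catalytic subunit. Rpn1 in Atf6+/+ cochleae was 45.32, 44.26, 48.43, 44.61 and 48.82 FPKM. The Atf6-/- values ranged from 50.05 to 55.44 FPKM with a median of 51.6 FPKM. Every Atf6-/- library was thus above every Atf6+/+ library. The means were 46.3 ± 2.17 FPKM (SD, n = 5) and 51.9 ± 2.07 FPKM (SD, n = 6), a fold of 1.12. The difference on the log2 scale was 0.17 with a standard error of 0.04 and a 95% interval of 0.07 to 0.26 (limma, unadjusted p = 0.00237, adjusted p = 0.325). Rpn1 was called in 11 of 11 alternative settings and in 11 of 11 fits without a library. Its log2 fold change was 0.19 with the marrow score as a covariate and 0.13 without the 2 libraries named above.

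Rpn2 encodes ribophorin II. Rpn2 in Atf6+/+ cochleae was 95.94, 97.02, 91.86, 102.25 and 105.47 FPKM. Rpn2 in Atf6-/- cochleae ranged from 99.08 to 111.24 FPKM with a median of 105.3 FPKM. The genotypes overlapped, with 3 of 6 Atf6-/- libraries above the highest Atf6+/+ library. Its log2 fold change was 0.10 (95% interval -0.01 to 0.20, limma, unadjusted p = 0.0657). Rpn2 passed the unadjusted test after rescaling to TPM (0.15, limma, unadjusted p = 0.00231) and after median-of-ratios scaling (0.11, limma, unadjusted p = 0.035). It also passed without Atf6+/+ replicate 4 (0.11), without Atf6+/+ replicate 5 (0.12) and without Atf6-/- replicate 2 (0.115). Rpn2 was 0.06 when the marrow score was a covariate (limma, unadjusted p = 0.359) and 0.11 with the replicate block (limma, unadjusted p = 0.11).

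Ddost encodes OST48, a membrane subunit next to the catalytic one. Ddost in Atf6+/+ cochleae was 58.08, 56.95, 59.93, 64.59 and 67.28 FPKM. Ddost in Atf6-/- cochleae ranged from 60.62 to 72.29 FPKM with a median of 65.2 FPKM, so that the genotypes overlapped. The log2 fold change of Ddost was 0.10 (95% interval -0.03 to 0.24, limma, unadjusted p = 0.127). Of the 22 alternatives, only rescaling to TPM gave a call (0.16, limma, unadjusted p = 0.00477), and with the marrow score as a covariate Ddost was 0.12 (limma, unadjusted p = 0.174).

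Dad1 encodes a small subunit first described as a defender against apoptotic cell death. Dad1 in Atf6+/+ cochleae was 235.65, 195.96, 246.42, 252.37 and 236.01 FPKM. The Atf6-/- libraries ranged from 218.05 to 254.40 FPKM with a median of 230.2 FPKM. All Atf6+/+ values apart from that of replicate 2 lay within the Atf6-/- range. The fold was 0.998 with a 95% interval of 0.903 to 1.10 (limma, unadjusted p = 0.975), and the sign turned under both rescalings.

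Of the genes of the STT3A form, Stt3a encodes its catalytic subunit. Stt3a in Atf6+/+ cochleae was 13.51, 12.52, 12.69, 10.83 and 12.57 FPKM. Stt3a in Atf6-/- cochleae ranged from 11.88 to 14.56 FPKM with a median of 13.3 FPKM. The genotypes overlapped, and the lowest value was that of Atf6+/+ replicate 4. Stt3a had a log2 fold change of 0.09 (95% interval -0.05 to 0.24, limma, unadjusted p = 0.176). It was 0.05 without Atf6+/+ replicate 4 and 0.02 without Atf6+/+ replicate 4 and Atf6-/- replicate 3. Stt3a was 0.06 when the marrow score was a covariate and 0.15 after rescaling to TPM, without a call in either.

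Ostc (DC2) and Krtcap2 (KCP2) encode the accessory subunits that attach the STT3A form to the SEC61 channel. Ostc was 53.63, 50.51, 55.66, 47.90 and 62.06 FPKM in Atf6+/+ cochleae and ranged from 49.07 to 63.94 FPKM, with a median of 54.4 FPKM, in Atf6-/- cochleae. Krtcap2 was 97.19, 77.49, 88.93, 97.42 and 101.41 FPKM in Atf6+/+ cochleae and ranged from 76.82 to 111.21 FPKM, with a median of 90.2 FPKM, in Atf6-/- cochleae. The genotypes of both genes overlapped over nearly their whole ranges. The log2 fold change was 0.03 for Ostc (95% interval -0.14 to 0.20) and -0.04 for Krtcap2 (-0.24 to 0.16), with unadjusted p of 0.727 and 0.675 by limma. A difference beyond these intervals was not seen for either gene, and the sign of Krtcap2 turned under rescaling to TPM and that of Ostc with the marrow score as a covariate.

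Of the genes of the STT3B form, Stt3b encodes its catalytic subunit. Stt3b in Atf6+/+ cochleae was 23.51, 23.47, 22.64, 20.54 and 22.26 FPKM. Stt3b in Atf6-/- cochleae ranged from 21.62 to 23.82 FPKM with a median of 22.9 FPKM. Stt3b varied least among Atf6-/- libraries of all members, with a coefficient of variation of 3.16%, and its genotypes overlapped. The fold was 1.02 with a 95% interval of 0.949 to 1.09 (limma, unadjusted p = 0.612).

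Tusc3 and Magt1 encode alternative thioredoxin-like subunits of the STT3B form, which bind cysteines of the substrate and help glycosylation near disulphide bonds. Tusc3 in Atf6+/+ cochleae was 38.29, 38.83, 33.75, 38.98 and 38.55 FPKM. Tusc3 in Atf6-/- cochleae ranged from 32.18 to 42.65 FPKM with a median of 35.9 FPKM. The Atf6-/- values enclosed all Atf6+/+ values. The log2 fold change of Tusc3 was -0.06 (95% interval -0.22 to 0.10, limma, unadjusted p = 0.423). The value for Tusc3 moved between -0.11 (without Atf6-/- replicate 3) and -0.03 (without Atf6-/- replicate 4) when 1 library was left out, with -0.10 without Atf6+/+ replicate 3 and -0.04 without Atf6-/- replicate 2. It was -0.17 with the marrow score as a covariate (limma, unadjusted p = 0.0671) and -0.003 after rescaling to TPM, and passed under none of the 22 alternatives.

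Magt1, an X-linked gene, had the largest log2 fold change of the 10 members, while Rpn1 had the smaller p. Magt1 in Atf6+/+ cochleae was 9.99, 9.57, 9.74, 7.17 and 9.93 FPKM. Magt1 in Atf6-/- cochleae ranged from 10.17 to 13.39 FPKM with a median of 11.5 FPKM. The genotypes did not overlap, although the lowest Atf6-/- and the highest Atf6+/+ library lay close together. The means were 9.28 ± 1.19 FPKM (SD, n = 5) and 11.5 ± 1.16 FPKM (SD, n = 6), a fold of 1.24 with a 95% interval of 1.07 to 1.44. The difference on the log2 scale was 0.31 with a standard error of 0.10 (limma, unadjusted p = 0.00706, adjusted p = 0.393). Magt1 was called in 11 of 11 fits without a library and in 10 of 11 alternative settings, the exception being the marrow score as a covariate (0.27, limma, unadjusted p = 0.0602). It was 0.22 on the log2 scale without Atf6+/+ replicate 4 and 0.18 without Atf6+/+ replicate 4 and Atf6-/- replicate 3, 1 of each genotype (unadjusted p = 0.0156 by limma). Among libraries with Y-linked transcripts above 1 FPKM, Magt1 was 7.17 to 9.99 FPKM in Atf6+/+ and 10.51 to 12.05 FPKM in Atf6-/- cochleae. The single Atf6+/+ library below that level had 9.93 FPKM and the Atf6-/- libraries there 10.17 to 13.39 FPKM.

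**Figure D3:**
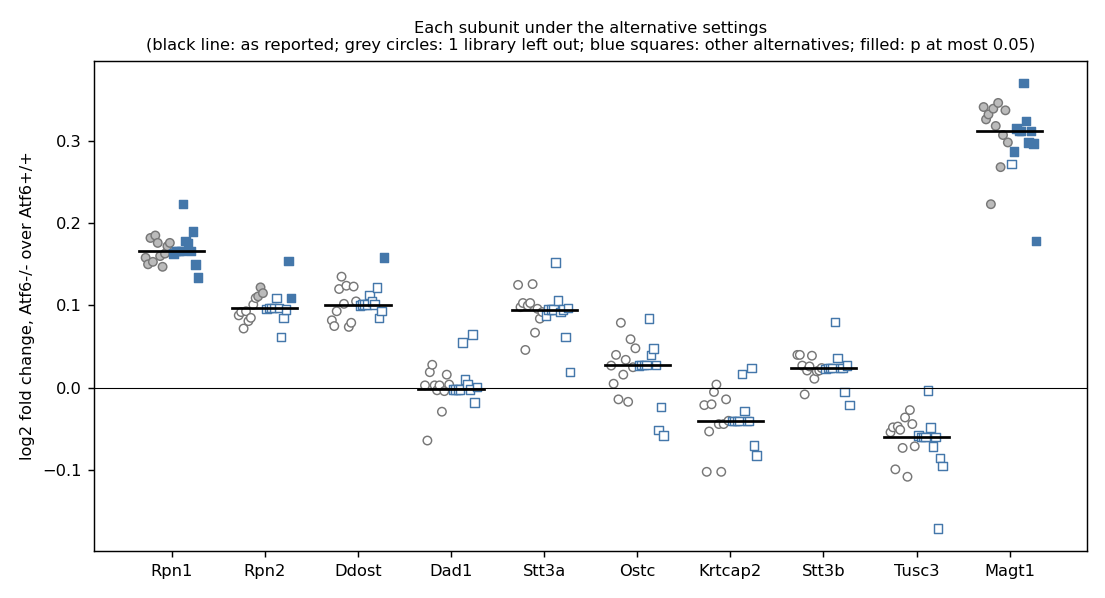
Log2 fold change of Atf6-/- over Atf6+/+ for each member as reported (black line), without each library in turn (grey circles) and under the other settings (blue squares), filled where the call was made. Rpn1 stays between 0.13 and 0.22, and Magt1 between 0.18 and 0.37.

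The balance between alternative subunits was compared within libraries, where scaling of a library cancels, as 2 ratios. The ratio of Magt1 to Tusc3 in Atf6+/+ cochleae was 0.261, 0.246, 0.289, 0.184 and 0.258. In Atf6-/- cochleae it ranged from 0.297 to 0.363. All 6 Atf6-/- libraries were above the highest Atf6+/+ library. The means were 0.247 ± 0.0388 (SD, n = 5) and 0.318 ± 0.0235 (SD, n = 6), a log2 difference of 0.37 (exact two-sided permutation test, p = 0.00216, 0.00432 adjusted over the 2 ratios). The difference was 0.27 without Atf6+/+ replicate 4 and without both that library and Atf6-/- replicate 3 (exact permutation p = 0.00476 and 0.00794, the smallest possible there). Magt1 enters this ratio, so the ratio is not independent of its own difference. The ratio was chosen with earlier results of these data known. Its correction covers 2 ratios only, while Magt1 itself had an adjusted p of 0.393 over all tested genes by limma. The ratio was not refitted with the marrow or the Y-linked score.

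The catalytic subunits were compared in the same way. The ratio of Stt3b to Stt3a in Atf6+/+ cochleae was 1.74, 1.87, 1.78, 1.90 and 1.77. In Atf6-/- cochleae it ranged from 1.64 to 1.82. Stt3b thus exceeded Stt3a in all 11 libraries, and the genotypes overlapped. The means were 1.81 ± 0.0684 (SD, n = 5) and 1.73 ± 0.0659 (SD, n = 6), a log2 difference of -0.07 that missed the threshold (exact two-sided permutation test, p = 0.0628). Without Atf6-/- replicate 2 the exact permutation p was 0.0317, and without Atf6+/+ replicate 1 it was 0.0429. Without Atf6+/+ replicate 4 and Atf6-/- replicate 3 the log2 difference was -0.04 (exact permutation p = 0.23).

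**Figure D4:**
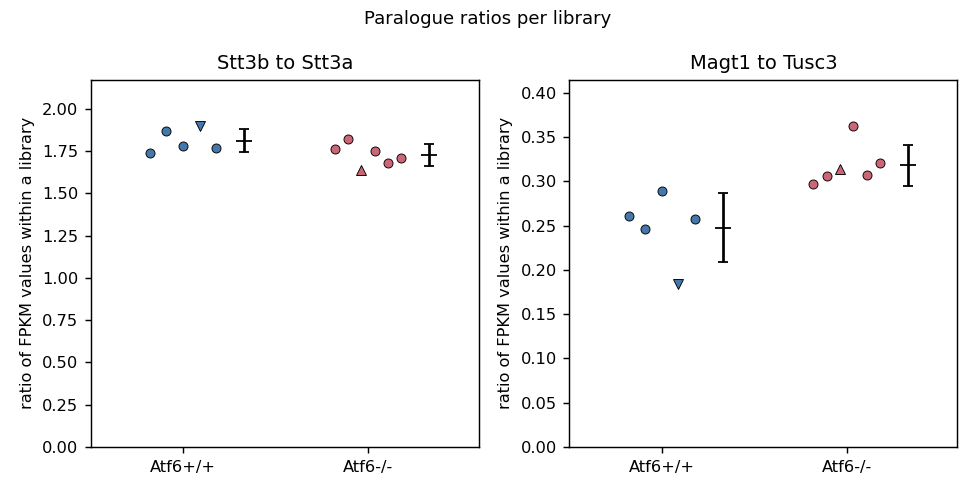
Ratio of FPKM values within each library (y axis, from 0) for Stt3b to Stt3a and Magt1 to Tusc3 in 5 Atf6+/+ (blue) and 6 Atf6-/- (red) cochleae, with mean and SD as black bars. All Atf6-/- ratios of Magt1 to Tusc3 lie above 0.289, the highest Atf6+/+ ratio, while the Stt3b to Stt3a ratios overlap.

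By role, the median log2 fold change was 0.10 for the 4 shared members, with 1 of 4 called higher. It was 0.03 for the 3 members of the STT3A form, with 0 of 3 called, and 0.02 for the 3 members of the STT3B form, with Magt1 called, where 4.48% of all tested genes were called higher. Differences between these groups of members were not tested.

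The remaining subunits and a partner were measured as well. Mlec, which encodes malectin, a lectin that binds glucosylated N-glycans and associates with ribophorin I, averaged 37.9 ± 3.88 FPKM (SD, n = 5) without the mutation and 42.9 ± 2.33 FPKM (SD, n = 6) with it. The log2 fold change of Mlec was 0.18 (limma, unadjusted p = 0.0196, adjusted p = 0.441), and 5 of 6 Atf6-/- libraries were above the highest Atf6+/+ library. Mlec lost the call with the marrow score as a covariate (0.195, limma, unadjusted p = 0.0589) and with the replicate block (0.165, limma, unadjusted p = 0.0634), at a fold change about as large. Without Atf6+/+ replicate 4 it was 0.121 and still called, and without that library and Atf6-/- replicate 3 it was 0.125 (limma, unadjusted p = 0.0511). Ost4, a very small subunit that stabilizes STT3, had a log2 fold change of 0.09 (95% interval -0.10 to 0.29), and Tmem258, another small shared subunit, of -0.01 (-0.26 to 0.25), a sign that turned under both rescalings. Ost4 passed after rescaling to TPM (0.15, limma, unadjusted p = 0.0474), and without a library it ranged from 0.035 (Atf6+/+ replicate 2) to 0.16 (Atf6+/+ replicate 5) and did not pass. With the marrow or the Y-linked score as a covariate Ost4 was 0.05.

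The steps before and after OST were described by lists of genes. Of 23 genes for dolichol and for building the lipid-linked sugar, 1 was higher and 0 lower, against 4.48% and 5.37% of all tested genes, with a median log2 fold change of 0.01. With the marrow score as a covariate 2 of the 23 were lower, against 3.34% of all tested genes in that fit. The gene that passed was Dpagt1, the enzyme of the first committed step (18.3 and 20.0 FPKM, log2 fold change 0.13, unadjusted p = 0.0334 by limma). Dpagt1 stayed called in 4 of 11 fits without a library (without Atf6+/+ replicate 1 or 3, or Atf6-/- replicate 2 or 5) and lost the call in the other 7, at 0.10 to 0.17 over all 11. It also lost the call with the replicate block (0.13, limma, unadjusted p = 0.0597). Without Atf6+/+ replicate 4 and Atf6-/- replicate 3 together Dpagt1 lost the call as well (0.12, limma, unadjusted p = 0.0807). With the marrow score as a covariate Dpagt1 was 0.20 and called (limma, unadjusted p = 0.012). Srd5a3, which completes dolichol synthesis, averaged 14.2 FPKM in Atf6+/+ libraries, 13.3 FPKM in Atf6-/- libraries, and missed the test (limma, unadjusted p = 0.0552), which it passed without Atf6+/+ replicate 1 or Atf6-/- replicate 3 (-0.12 for both) and with no filter on low genes (-0.10). Dpm1, of dolichol-phosphate mannose synthase, and Alg10b, which adds the last glucose, also missed it, at log2 fold changes of -0.13 and 0.23, and passed without Atf6-/- replicate 1 (-0.17) and Atf6+/+ replicate 1 (0.32), respectively. Alg10b ranged down to 0.12 without Atf6+/+ replicate 4 and was also 0.12 with the marrow score as a covariate. Dpm1 also passed with the marrow score (-0.27, limma, unadjusted p = 0.00798) and with the Y-linked score (-0.17, limma, unadjusted p = 0.0231) as a covariate. Over the 11 alternatives beside leaving out 1 library, Srd5a3 ranged from -0.11 to -0.045 (after rescaling to TPM), Dpm1 from -0.27 to -0.07 (after rescaling to TPM) and Alg10b from 0.12 to 0.29.

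Of 12 genes of the SEC61 channel and the translocon-associated TRAP complex, which lie beside the STT3A form, 1 was higher and 0 lower, against 4.48% and 5.37% of all tested genes, with a median of 0.06. Sec61a1, the pore-forming subunit, was at 49.6 ± 2.03 FPKM (SD, n = 5) in Atf6+/+ cochleae against 59.2 ± 2.97 FPKM (SD, n = 6) in the mutants, with no overlap of the genotypes (log2 fold change 0.26, limma, unadjusted p = 0.000116, adjusted p = 0.0851). Sec61a1 passed the unadjusted test in 22 of 22 alternatives. Its adjusted p by limma ranged there from 0.036 (without Atf6-/- replicate 2) to 0.842 (with the marrow score as a covariate). Ssr2 had a log2 fold change of 0.13 (limma, unadjusted p = 0.0513), Sec61b of 0.16 and Sec63 of 0.09, and none of the 3 passed. Ssr2 passed without Atf6+/+ replicate 4 (0.16) or 5 (0.17) and Sec61b without Atf6-/- replicate 5 (0.24). Over the 11 fits without a library Ssr2 ranged from 0.09 to 0.17, Sec61b from 0.11 to 0.24 and Sec63 from 0.03 (without Atf6+/+ replicate 4) to 0.11. Ssr2 and Sec61b passed after rescaling to TPM (0.19 and 0.22), and Ssr2 also after median-of-ratios scaling (0.14) and with no filter on low genes (0.13). Over the 11 alternatives beside leaving out 1 library, the ranges were 0.10 to 0.19 for Ssr2, 0.11 to 0.22 for Sec61b and 0.03 to 0.14 for Sec63.

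Of 12 genes for trimming the glycan and for the calnexin cycle, 2 were higher and 0 lower, against 4.48% and 5.37% of all tested genes, with a median of 0.04. Both are cargo lectins of the early secretory pathway. Lman2 averaged 36.7 FPKM in Atf6+/+ libraries and 40.7 FPKM in Atf6-/- libraries without overlap (log2 fold change 0.15, limma, unadjusted p = 0.00279). Lman1 averaged 19.1 and 21.8 FPKM (0.20, limma, unadjusted p = 0.0423). The call of Lman1 was lost with the marrow score as a covariate (0.04) and in 6 of 11 fits without a library (without Atf6+/+ replicate 3 or 4, or Atf6-/- replicate 1, 3, 5 or 6), at 0.12 to 0.24 over all 11. It was also lost with the Y-linked score as a covariate (0.19, limma, unadjusted p = 0.0651) and without Atf6+/+ replicate 4 and Atf6-/- replicate 3 together (0.13, limma, unadjusted p = 0.136). Uggt1, the folding sensor that reglucosylates glycoproteins, and Pdia3, the disulphide isomerase of the cycle, had log2 fold changes of 0.12 and -0.13 and did not pass, while Uggt1 passed without Atf6+/+ replicate 3 (0.155) and Pdia3 without Atf6+/+ replicate 4 (-0.17) or Atf6-/- replicate 3 (-0.16). Pdia3 was -0.20 without both of these libraries (limma, unadjusted p = 0.00883) and also passed with the Y-linked score as a covariate (-0.17), and Uggt1 also passed after rescaling to TPM (0.17) and after median-of-ratios scaling (0.13). Pdia3 was -0.07 after rescaling to TPM (limma, unadjusted p = 0.261), and Uggt1 was 0.075 without Atf6+/+ replicate 4 and Atf6-/- replicate 3 (limma, unadjusted p = 0.204). Of 13 Golgi genes that mature N-glycans, 0 passed in either direction, against 4.48% of all tested genes higher and 5.37% lower, with a median of 0.06, and Man2a2, Fut8, Mgat5 and B4galt1 had the smallest p values among them, from 0.101 to 0.188 by limma. Man2a2 passed without Atf6-/- replicate 3 (0.16), Fut8 without Atf6+/+ replicate 4 (0.11, and 0.13 without Atf6-/- replicate 3 as well) and Mgat5 without Atf6+/+ replicate 1 (0.19). Over the 11 fits without a library Man2a2 ranged from 0.09 to 0.16, Fut8 from 0.06 to 0.11, B4galt1 from -0.15 to -0.07 and Mgat5 from 0.08 (without Atf6+/+ replicate 4) to 0.19. Over the other 11 alternatives Man2a2 ranged from 0.05 (with the marrow score as a covariate) to 0.18, Fut8 from 0.08 to 0.14, Mgat5 from 0.10 to 0.20 and B4galt1 from -0.16 to -0.06.

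**Figure D5:**
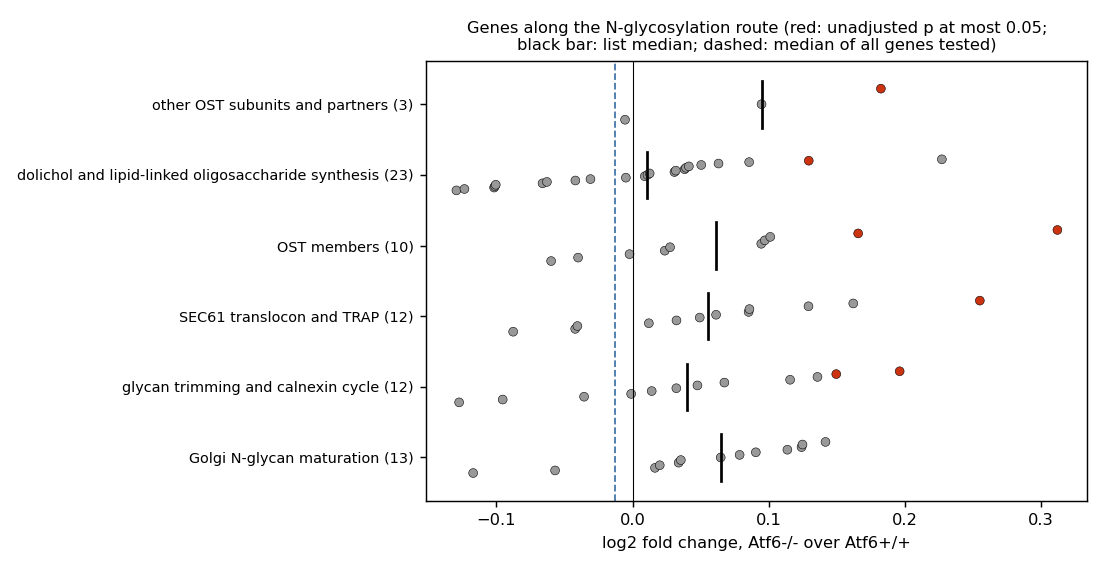
Log2 fold change of Atf6-/- over Atf6+/+ (x axis) for each gene of the N-glycosylation lists, with the number of genes in parentheses, the list median as a black bar and the median of all tested genes, -0.01, as a dashed line. Called genes (red) are Mlec, Dpagt1, Rpn1, Magt1, Sec61a1, Lman2 and Lman1, all of them higher in Atf6-/- cochleae.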

How the data were processed

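RNA was measured in 11 whole-cochlea libraries (5 Atf6+/+, 6 Atf6-/-), grouped by the labels. According to the study's methods and the submitters' processing notes, stranded mRNA libraries were sequenced on the DNBSEQ platform and alignment by the authors used HISAT2 2.0.4 and the GRCm39 build. The FPKM values deposited by the authors came from RSEM, which shares reads between similar transcripts (1.2.12 in the processing notes, another release in the methods), and have 2 decimals. Counts were not used here, so counting error and the depth of each library beyond the read number given in the methods are unknown. The authors tested expression with DESeq2 1.4.5, which needs counts and was not used here.

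Genes whose mean reached 0.1 FPKM were tested on log2(FPKM + 0.1) with limma 3.58.1 (R 4.3.3, mean-variance trend, two-sided, Benjamini-Hochberg over all genes tested), with genotype as the only term. The pseudocount slightly understates the change of low genes. A gene was called where the unadjusted p did not exceed 0.05 and the log2 fold change lay beyond 0.05 in either direction. This follows the study's cutoffs, with its fold change cutoff read here as log2. The script was tested on simulated data. Atf6 and ratios were compared by exact permutation in Python 3.11.15 with numpy 2.4.6. P-values measure the spread between individual cochleae.

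The members, gene lists and tests were chosen with earlier results of these data known. The search for CCAAT alone was added after the files were seen. All 10 members, Tmem258, Ost4, Mlec, Atf6 and up to 4 genes of each other list with the smallest p were named. Promoter windows were read from RefSeq (GRCm38.p6) by gene ID, and the deposited files hold no coordinates. Alternatives were pseudocounts of 1 and 0.01 FPKM, no filter, a filter of 1 FPKM, median-of-ratios scaling and rescaling to TPM. Others were robust empirical Bayes, a replicate block, a marrow score as a covariate and leaving out each library. The marrow score is the mean of the mean log2 levels of the neutrophil, B cell and erythroid lists. That score differed between genotypes with some overlap, at 3.58 to 5.63 in Atf6+/+ and 2.17 to 4.02 in Atf6-/- libraries. A Y-linked score as a covariate and leaving out Atf6+/+ replicate 4 with Atf6-/- replicate 3 were added after seeing the data.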

Additional observations from a re-analysis of the deposited data

Results flagged for a closer look

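Among 64 groups of libraries examined for a single value far from the rest of its genotype, 6 had one, where chance gives about 1 in 20. Magt1 was 7.17 FPKM in Atf6+/+ replicate 4, whose nearest neighbour was 9.57 FPKM. Sec63 was lowest in the same library, at 13.3 FPKM against 16.0 FPKM. Tusc3 was 33.8 FPKM in Atf6+/+ replicate 3, with the next library at 38.3 FPKM. Ost4 was 152 FPKM and Ssr2 132 FPKM in Atf6-/- replicate 3, with the next libraries at 128 and 122 FPKM. The ratio of Magt1 to Tusc3 was 0.363 in Atf6-/- replicate 4, and the next highest was 0.321.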

How the results depend on the processing

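Over 22 alternatives, 0 OST members were lower and 0 passed an adjusted p below 0.05 by limma. The number higher was 4 after rescaling to TPM (8.59% of all genes) and 3 after median-of-ratios scaling (5.41%). It was 1 with the marrow score as a covariate (2.1%) and 2 to 3 without a library (3.24% to 5.39%), against 2 as reported (4.48%). The members' median log2 fold change was 0.01 to 0.12 over the alternatives and 0.04 to 0.09 without a library. Rescaling to TPM moved the share of higher genes among all calls from 45.5% to 76.0% and the median of all genes from -0.01 to 0.04. Calls of the companion lists in either direction, 5 in all as reported, became 12 after rescaling to TPM (8.59% of all genes higher, 2.72% lower), 3 with the replicate block (2.61% and 4.08%) and 3 to 8 without a library (8 without Atf6+/+ replicate 1, with 5.39% and 6.14%, and 3 without Atf6-/- replicate 6, with 3.25% and 4.15%). Stt3b turned to -0.005 with the marrow score and -0.021 without Atf6+/+ replicate 4 and Atf6-/- replicate 3, and Ostc to -0.051 and -0.058 there and to -0.023 with the Y-linked score. Dad1 turned to 0.055 under TPM, 0.01 under median-of-ratios scaling, 0.004 with the replicate block, 0.065 with the marrow score and 0.001 without the 2 libraries. Krtcap2 turned to 0.017 under TPM and 0.024 with the marrow score. Tmem258 turned to 0.051, 0.006, 0.027, 0.12 and 0.039 under the settings named for Dad1. Without a library, Stt3b ranged from -0.008 to 0.04, Dad1 from -0.064 to 0.028, Ostc from -0.017 to 0.079, Krtcap2 from -0.102 to 0.004 and Tmem258 from -0.085 to 0.073. The log2 difference of the ratio of Stt3b to Stt3a ranged from -0.086 to -0.055 without a library, and that of Magt1 to Tusc3 from 0.27 to 0.431. The cause of these shifts was not tested.

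Replicate numbers did not pair the libraries, since correlations of same-numbered deviations were -0.21 to 0.119. With the replicate block, which drops Atf6-/- replicate 6, Rpn1 was 0.18 (limma, unadjusted p = 0.01) and Magt1 0.30 (unadjusted p = 0.0252 by limma). Calls over all genes were 422 higher and 660 lower, against 724 and 868. The paired Magt1 to Tusc3 difference was 0.369, with an exact permutation p of 0.0625, the smallest 5 pairs allow. Read counts per library were not used here, so counting error could not be set against any value.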
